A study of Mus musculus with 4 samples.

Results

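Rnase4, Ang, Rassf4, Rassf10, Gulo and Lor are 6 of the 31053 genes measured in kidney cells after an injection of FGF23, a bone-derived hormone that lowers phosphate reabsorption and vitamin D activation in the kidney. They were selected by symbol because earlier results of the same data had shown higher levels at 4 h or 12 h in proximal or distal tubule cells. Their levels at those times are therefore given as a description, and no test stands behind them. For 5 of the 6 genes the highest level in proximal or distal tubule cells was at 12 h, which their selection made likely in advance. Lor was the exception, since its level was highest at 4 h and lay near that of 0 h again at 12 h. The word late describes the peak only, since Rnase4, Rassf4 and Lor were already higher at 1 h in proximal tubule cells.

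Kidneys came from 10-week-old C57BL/6 mice, and each library pooled kidneys of males and females. Mice had received 10 µg of recombinant human FGF23 intraperitoneally and were taken 1, 4 or 12 h later, and the 0 h group had a dose of 0 µg. The 0 h library carries a file name that speaks of saline at 1 h, so an injection of its mice is possible but unsettled. There were 4 libraries of dissociated cells, 1 per time, and no time had a second library. Differences between animals, preparations and times of day cannot be told apart from the time after FGF23, and every interval below covers counting error only.

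Levels are UMIs (unique molecules counted in droplet sequencing of 3' ends) summed over the cells of a class in a library and divided by all UMIs of those cells and given as CPM (UMIs per 1000000), with exact Poisson 95% intervals. Ratios between libraries are on the log2 scale with exact binomial 95% intervals. Clusters of cells were named from marker genes: PT-like for proximal tubule, DCT/CNT-like for distal convoluted and connecting tubule, TAL-like for thick ascending limb. A level is called higher or lower here where the interval of the ratio leaves out 0.

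The libraries held 139675666 to 158838728 UMIs in 12245 to 13813 barcodes, and pairs of libraries shared 36 to 57 barcodes, at most 0.465% of a library. PT-like cells numbered 6682, 6304, 7343 and 6448 at 0, 1, 4 and 12 h, and DCT/CNT-like cells numbered 464, 448, 621 and 567. Genes known to respond to the hormone differed between the libraries in PT-like cells. Cyp24a1, which inactivates vitamin D, was at 49.8, 231, 422 and 330 CPM, and Cyp27b1, which activates it, at 2.64, 0.955, 0.187 and 0.277 CPM. Egr1 was at least 2-fold higher at 1 h and at least 2-fold lower at 12 h than at 0 h. The summed level of the 8 DCT/CNT markers in DCT/CNT-like cells was 37382, 42851, 51600 and 48288 CPM. S100g (11958, 13369, 17741 and 18158 CPM) and Klk1 (10841, 14906, 21619 and 19334 CPM) carried that increase, while Slc12a3 was at 10496, 9969, 8188 and 7876 CPM, Pvalb at 556, 455, 421 and 327 CPM and Trpm6 at 138, 134, 115 and 62.1 CPM. The part of this makeup in the distal results was not tested.

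The genes have separate roles. Rnase4 and Ang encode secreted ribonucleases of the RNase A family. Angiogenin, the product of Ang, cleaves tRNA under stress and promotes vessel growth, and both proteins take part in host defence at epithelial surfaces. Rassf4 and Rassf10 belong to the RASSF family of scaffold proteins with a Ras-association domain, and several members bind the Hippo kinases that restrain growth. Gulo encodes L-gulonolactone oxidase, which carries out the final step of vitamin C synthesis in the mouse, a step best known from the liver. Lor encodes loricrin, a main protein of the cornified envelope of the epidermis.

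Rnase4 and Ang form a nested pair in the genome. In GENCODE vM21 (build GRCm38), Rnase4 (ENSMUSG00000021876) lies on the plus strand of chromosome 14 from 51091077 to 51106151, and Ang (ENSMUSG00000072115) lies on the same strand from 51091150 to 51102009, within it. Transcripts of both genes have overlapping first exons and splice to separate last exons, of 624 bases for Ang (51101386 to 51102009) and up to 1345 bases for Rnase4 (51104807 to 51106151). The last exons do not overlap and lie 2797 bases apart, which matters because the libraries count 3' ends. How reads from the shared first exons were assigned is not given in the sources used here. RefSeq's promoter table (GRCm38.p6) had entries for 4 of the 6 genes and none for Rassf10 and Gulo, and the first window listed under Rnase4 is identical to the window of Ang. It ends just before 51091077, where GENCODE starts a transcript of Rnase4, and a transcript of Ang starts at 51091150. The second window, listed under Rnase4 in RefSeq, ends just before 51096000, where GENCODE starts a transcript of Ang, and the nearest Rnase4 transcript starts at 51096359. Both windows, of 250 bases, 5′ to 3′ on the plus strand, are printed because both genes were higher in the same cells:
Rnase4 and Ang, chr14:51090827-51091076: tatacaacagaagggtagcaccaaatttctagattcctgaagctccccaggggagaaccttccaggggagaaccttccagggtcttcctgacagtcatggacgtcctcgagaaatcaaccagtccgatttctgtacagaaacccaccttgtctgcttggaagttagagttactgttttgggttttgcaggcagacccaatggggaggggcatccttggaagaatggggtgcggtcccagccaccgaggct
Second window, listed under Rnase4, chr14:51095750-51095999: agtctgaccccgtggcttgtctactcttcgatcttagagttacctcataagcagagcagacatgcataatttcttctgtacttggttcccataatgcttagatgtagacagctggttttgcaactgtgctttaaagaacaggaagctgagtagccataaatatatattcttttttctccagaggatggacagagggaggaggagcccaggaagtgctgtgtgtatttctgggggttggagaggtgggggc

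Lor (ENSMUSG00000043165) lies on the minus strand of chromosome 3 from 92080271 to 92083142. Its window is shown because it was the member with an early peak, and capitals mark the matches found:
Lor, chr3:92083143-92083392, minus strand: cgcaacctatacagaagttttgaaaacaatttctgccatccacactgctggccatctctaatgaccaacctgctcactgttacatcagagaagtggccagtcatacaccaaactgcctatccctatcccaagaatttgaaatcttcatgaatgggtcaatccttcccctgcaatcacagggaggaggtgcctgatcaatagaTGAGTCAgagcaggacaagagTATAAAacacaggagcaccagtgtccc

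Both strands of the windows were searched for 6 motifs: TGANTCA (the AP-1 element), TGACGTCA (the cAMP response element), CCGGAAGT (an ETS element), CACGTG (an E-box), GCGTGGGCG (the EGR element) and TATAAA (the TATA element). The Lor window held TGAGTCA 48 bases before the start site and TATAAA 27 bases before it. Of 32851 promoter windows of that length, 6.75% held the AP-1 letters and 12.4% the TATA letters, so neither match is rare. The other motifs occurred in 0.536% to 6.02% of windows, and none of the 6 was found in the windows of Rnase4, Ang or Rassf4. Rassf4 (ENSMUSG00000042129) lies on chromosome 6 from 116633008 to 116673952 on the minus strand. Rassf10 (ENSMUSG00000098132) lies on chromosome 7 from 112953962 to 112957457 on the plus strand. Gulo (ENSMUSG00000034450) lies on chromosome 14 from 65986786 to 66009207 on the minus strand.

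Rnase4, Ang and Rassf4 were higher at 12 h in PT-like cells, while Gulo and Rassf10 were higher at 12 h in DCT/CNT-like cells. Lor was higher at 4 h in both. In DCT/CNT-like cells Rnase4, Ang and Rassf4 had 6 UMIs or fewer per library. Their ratios there were resolved neither from 0 nor from the PT-like ratios at 12 h. As background, 1.37% of the 11618 genes with at least 100 UMIs over both libraries were at least 2-fold higher at 12 h than at 0 h in PT-like cells, and 1.46% of 7522 genes were in DCT/CNT-like cells. The same shares for 4 h were 1.81% of 11723 genes and 2.50% of 7771 genes, and at 1 h 0.421% and 0.712%. The shares at least 2-fold lower at 1, 4 and 12 h were 0.396%, 1.23% and 1.41% in PT-like cells and 0.164%, 1.79% and 1.18% in DCT/CNT-like cells. At 12 h in PT-like cells, 3 of the 6 genes had that many UMIs (Rnase4, Ang and Rassf4), and all 3 were past 2-fold. In DCT/CNT-like cells only Gulo and Rassf10 did, and both were past 2-fold. These contrasts chose the genes, so nothing is read from those counts. All these ratios share the 0 h library, and the median ratio over all genes passing that minimum lay between -0.03 and 0.05 in each comparison.

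**Figure D1:**
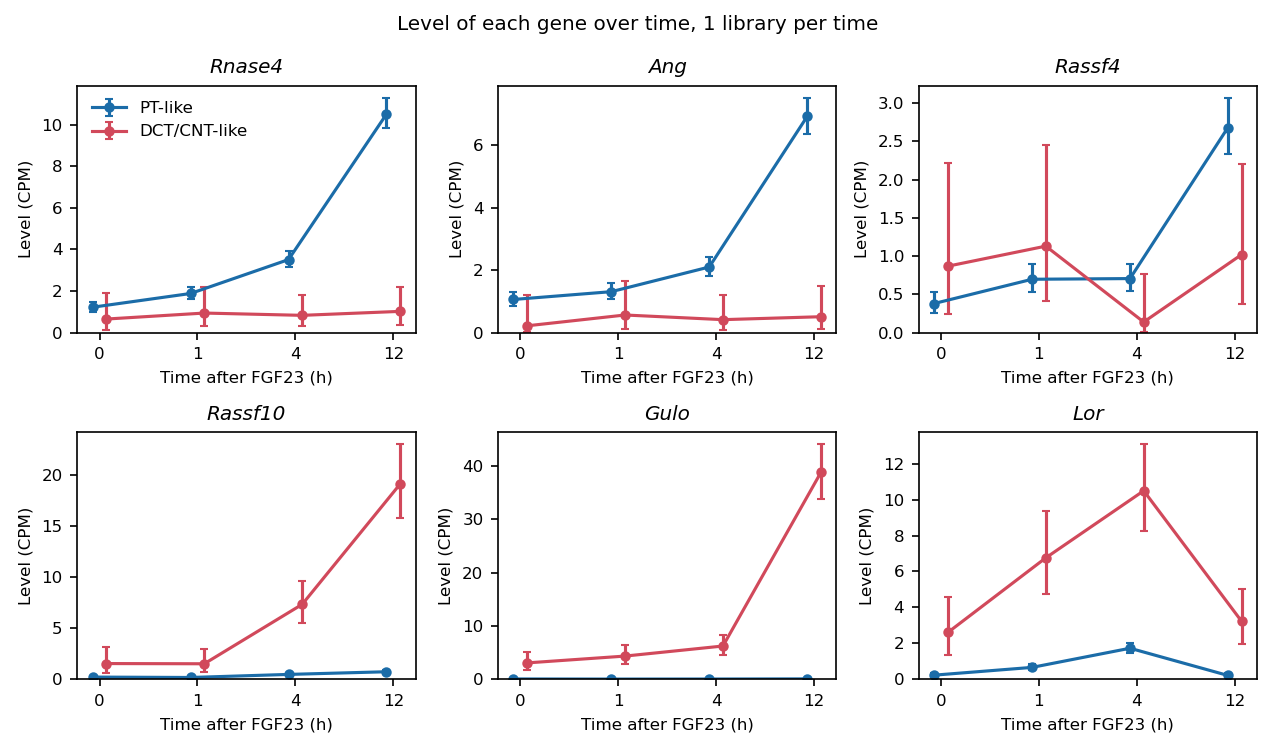
Level in CPM (linear axis) of each gene at 0, 1, 4 and 12 h (times drawn at equal distances) in PT-like (blue) and DCT/CNT-like (red) cells, 1 library per time, with bars for the 95% Poisson interval. Rnase4 and Ang climb to 10.5 and 6.92 CPM in PT-like cells, Gulo and Rassf10 to 38.8 and 19.1 CPM in DCT/CNT-like cells, and Lor peaks at 4 h in both.

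Rnase4, the ribonuclease of the pair with the longer last exon, was counted with 106, 167, 338 and 836 UMIs in PT-like cells at 0, 1, 4 and 12 h. That is 1.22 (1.00 to 1.48), 1.88 (1.60 to 2.18), 3.51 (3.15 to 3.90) and 10.5 CPM (9.83 to 11.3), and no 2 of the 4 intervals overlap. Its log2 ratios to 0 h were 0.62 (0.26 to 0.99), 1.52 (1.20 to 1.85) and 3.11 (2.82 to 3.41) at 1, 4 and 12 h, an 8.63-fold difference. It ranked 5 of 11618 genes by the size of its increase at 12 h and 66 of 11723 at 4 h. In DCT/CNT-like cells it had 3, 5, 6 and 6 UMIs, and no difference was detectable at that depth.

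Ang, the gene of angiogenin, had 92, 117, 202 and 549 UMIs in PT-like cells, or 1.06 (0.854 to 1.30), 1.31 (1.09 to 1.58), 2.10 (1.82 to 2.41) and 6.92 CPM (6.35 to 7.52). The intervals of 0 h and 1 h overlap, and those of 4 h and 12 h lie above them. The log2 ratios to 0 h were 0.31 (-0.09 to 0.72), 0.99 (0.62 to 1.36) and 2.71 (2.39 to 3.04) at 1, 4 and 12 h. Ang ranked 10 of 11618 genes at 12 h. DCT/CNT-like cells gave 1, 3, 3 and 3 UMIs.

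The PT-like signal of both ribonuclease genes came from the early part of the proximal tubule. PT-like clusters were sorted by their levels of markers for the S1, S2 and S3 segments, which follow each other from the glomerulus onwards. The 8 clusters that scored highest for S1 held 95.3 to 98.8% of the PT-like UMIs of Rnase4 at each time and 94.9 to 97.8% of those of Ang. Rnase4 in those S1 clusters was at 4.11, 5.98, 10.1 and 28.4 CPM, a log2 ratio of 2.79 (2.49 to 3.1) at 12 h. Ang there was at 3.66, 4.02, 6.07 and 18.6 CPM, a log2 ratio of 2.35 (2.02 to 2.69). The 5 clusters that scored highest for S3 had 3, 1, 4 and 10 UMIs of Rnase4 and 1, 3, 1 and 5 of Ang.

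These 5 S3 clusters held 2810, 2350, 2472 and 1944 cells, against 3872, 3954, 4871 and 4504 in the S1 and S2 clusters together, so the makeup of the PT-like class differed between libraries. With each PT-like cluster held at its share of 0 h, a comparison chosen after seeing the data, the log2 ratio at 12 h was 2.73 for Rnase4 and 2.27 for Ang. The S3 clusters carried S2 markers as well: clusters 0, 1 and 5 scored 1.08, 1.38 and 1.39 for S2 and 1.46, 2.03 and 1.99 for S3 (log2 of the marker level over its mean in PT-like clusters). They are called S3 here by that rule alone.

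Single clusters showed the increase too. Cluster 3, whose leading genes include Col8a1, Apob and the S1 glucose transporter Slc5a2, had 34, 70, 208 and 466 UMIs of Rnase4, or 5.20, 9.57, 15.4 and 44.1 CPM. Ang in that cluster was at 5.50, 8.20, 8.13 and 27.6 CPM. In clusters 2, 10, 13 and 23 the log2 ratio of Rnase4 at 12 h was 3.41 (2.39 to 4.65), 1.93 (1.28 to 2.63), 2.43 (1.70 to 3.19) and 2.97 (1.60 to 4.68). For Ang in clusters 2, 10 and 13 it was 1.80 (1.11 to 2.56), 2.20 (1.32 to 3.16) and 2.13 (1.19 to 3.1). Cluster 23 had 1 UMI of Ang at 0 h and 16 at 12 h, a ratio of 4.24 with an interval from 1.56 to 9.63. Every 12 h interval in these 5 clusters therefore leaves out 0, for both genes. PT-like clusters 7, 12 and 17 also had at least 12 UMIs of Rnase4. Cluster 7 had 2, 1, 0 and 10 UMIs, and its ratio at 12 h, 1.54 (-0.70 to 4.77), was not resolved from 0. Cluster 12 had 0, 4, 13 and 17 UMIs and cluster 17 had 3, 0, 1 and 16 (2.37, 0.56 to 4.79). For Ang, clusters 6 and 12 also had that many, with 0, 0, 1 and 11 UMIs and 1, 1, 7 and 15 UMIs.

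**Figure D2:**
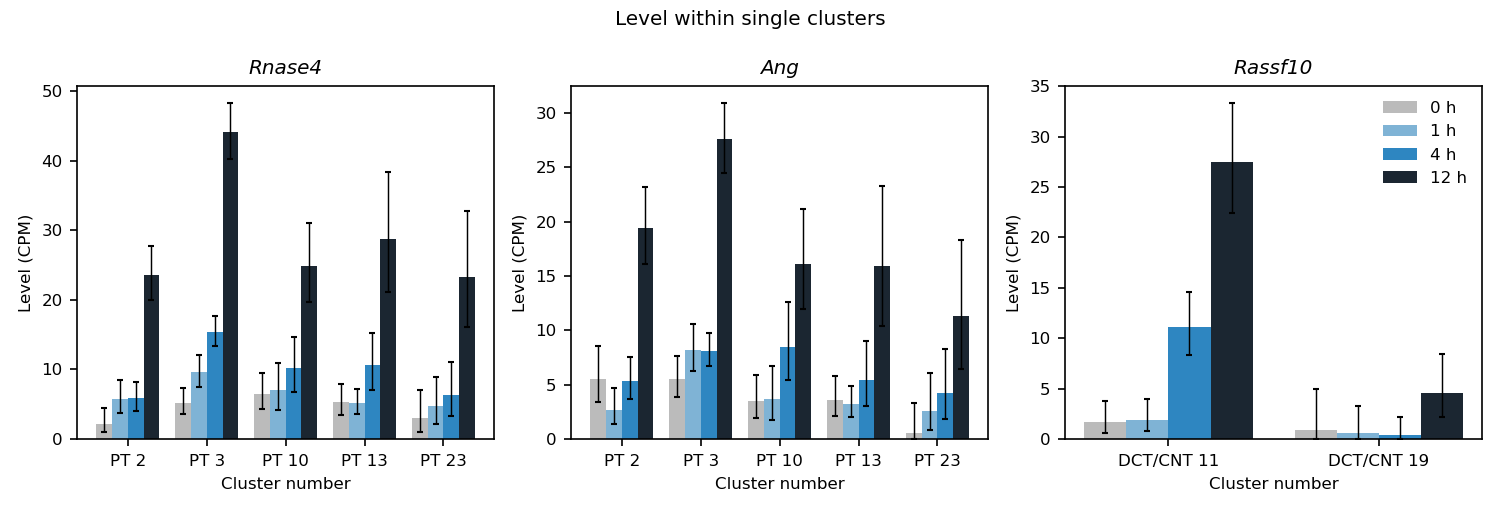
Level in CPM (linear axis from 0) of Rnase4 and Ang in 5 PT-like clusters and of Rassf10 in the 2 DCT/CNT-like clusters, with 1 bar per library and lines for the 95% Poisson interval. The 12 h bar is the tallest in each cluster, and for Rassf10 it stands at 27.5 CPM in cluster 11 and 4.61 CPM in cluster 19.

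The share of cells with a UMI of either gene moved in the same direction as the level. Among S1 and S2 cells 2.40% (1.94 to 2.93, exact Clopper-Pearson interval), 3.39%, 4.93% and 11% (10.1 to 11.9) had Rnase4 in the 4 libraries in order of time. With each cell thinned to 2000 UMIs, which left out 312, 136, 146 and 385 shallower cells, the shares were 0.365%, 0.812%, 1.19% and 3.08%. Ang was found in 2.01%, 2.40%, 3.51% and 8.57% of these cells, and in 0.506%, 0.602%, 0.635% and 2.11% after thinning. B-like cells, which do not belong to the epithelium, had no UMI of either gene in 181, 176, 94 and 271 cells. A count of 0 among so few cells allows shares of up to 1.35 to 3.85%, and after thinning up to 1.71 to 4.93%, so they set no low background. The highest count in 1 PT-like cell was 9 UMIs for Rnase4 and 8 for Ang, both at 12 h.

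The same cells tended to carry both transcripts. At 12 h, 495 S1 and S2 cells had Rnase4, 386 had Ang and 183 had both. Ang was found in 37.0% of the cells with Rnase4 (32.7 to 41.4) and in 5.06% of those without it (4.41 to 5.79). The cells with Rnase4 were also deeper, with a median of 13262 UMIs against 8958, and the part of depth in the overlap was not tested. At 0 h the shares were 12.9% (6.85 to 21.5) and 1.75% (1.35 to 2.22). The number of Rnase4 UMIs per Ang UMI in these cells was 1.13, 1.46, 1.66 and 1.52 at 0, 1, 4 and 12 h.

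Outside the PT-like class, Rnase4 was also found in macrophage-like, endothelial-like and unnamed cells, and on few UMIs in others. T/NK-like (T and natural killer) cells were at 9.10, 6.49, 9.01 and 9.50 CPM on 5, 3, 5 and 8 UMIs. Stromal-like cells had 2, 0, 5 and 3 UMIs. Macrophage-like cells had 29, 18, 5 and 23 UMIs, or 44.3, 42.3, 21.8 and 33.9 CPM, and all 4 intervals overlap. Their 2 clusters changed in proportion: cluster 29 held 55, 46, 29 and 66 cells with 3, 4, 5 and 11 UMIs, and cluster 34 held 83, 29, 3 and 49 cells with 26, 14, 0 and 12 UMIs. At 12 h the ratio was 1.55 (-0.38 to 4.03) in cluster 29 and -0.88 (-2.01 to 0.15) in cluster 34, so neither was resolved from 0. Endothelial-like cells were at 3.87, 12.3, 13.2 and 12.0 CPM on 3, 11, 18 and 21 UMIs, again with overlapping intervals, and their ratio at 12 h, 1.64 (-0.11 to 4.03), was resolved neither from 0 nor from the PT-like value. Unnamed cluster 30, led by Dcn and Wt1, had 57, 27, 23 and 32 UMIs of Rnase4 in 39, 46, 63 and 48 cells, or 105, 33.8, 28.6 and 53.7 CPM, a ratio of -0.97 (-1.64 to -0.32) at 12 h. Unnamed cluster 39, of 11, 42, 26 and 23 cells, was led by the urothelial genes Upk3a, Upk1a and Krt5. It was at 101, 129, 121 and 67.9 CPM for Rnase4, with a ratio of -0.57 (-1.44 to 0.30) at 12 h. Its Ang was at 41.9, 95.4, 114 and 48.9 CPM on 10, 105, 51 and 18 UMIs, and its ratios to 0 h at the later times were 1.19 (0.25 to 2.29), 1.44 (0.45 to 2.59) and 0.22 (-0.97 to 1.5). PT-like cells held 41.6% of the 255 Rnase4 UMIs of the 0 h library and 83.8% of the 998 at 12 h. For Ang these shares were 62.6% of 147 and 87.8% of 625. At 1 h PT-like cells held 42.1% of the Rnase4 UMIs and 43.8% of those of Ang, and unnamed cells 45.8% and 45.7%. Unnamed cells held 37.3% of Rnase4 and 18.4% of Ang at 0 h, and 7.41% and 4.96% at 12 h.

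**Figure D3:**
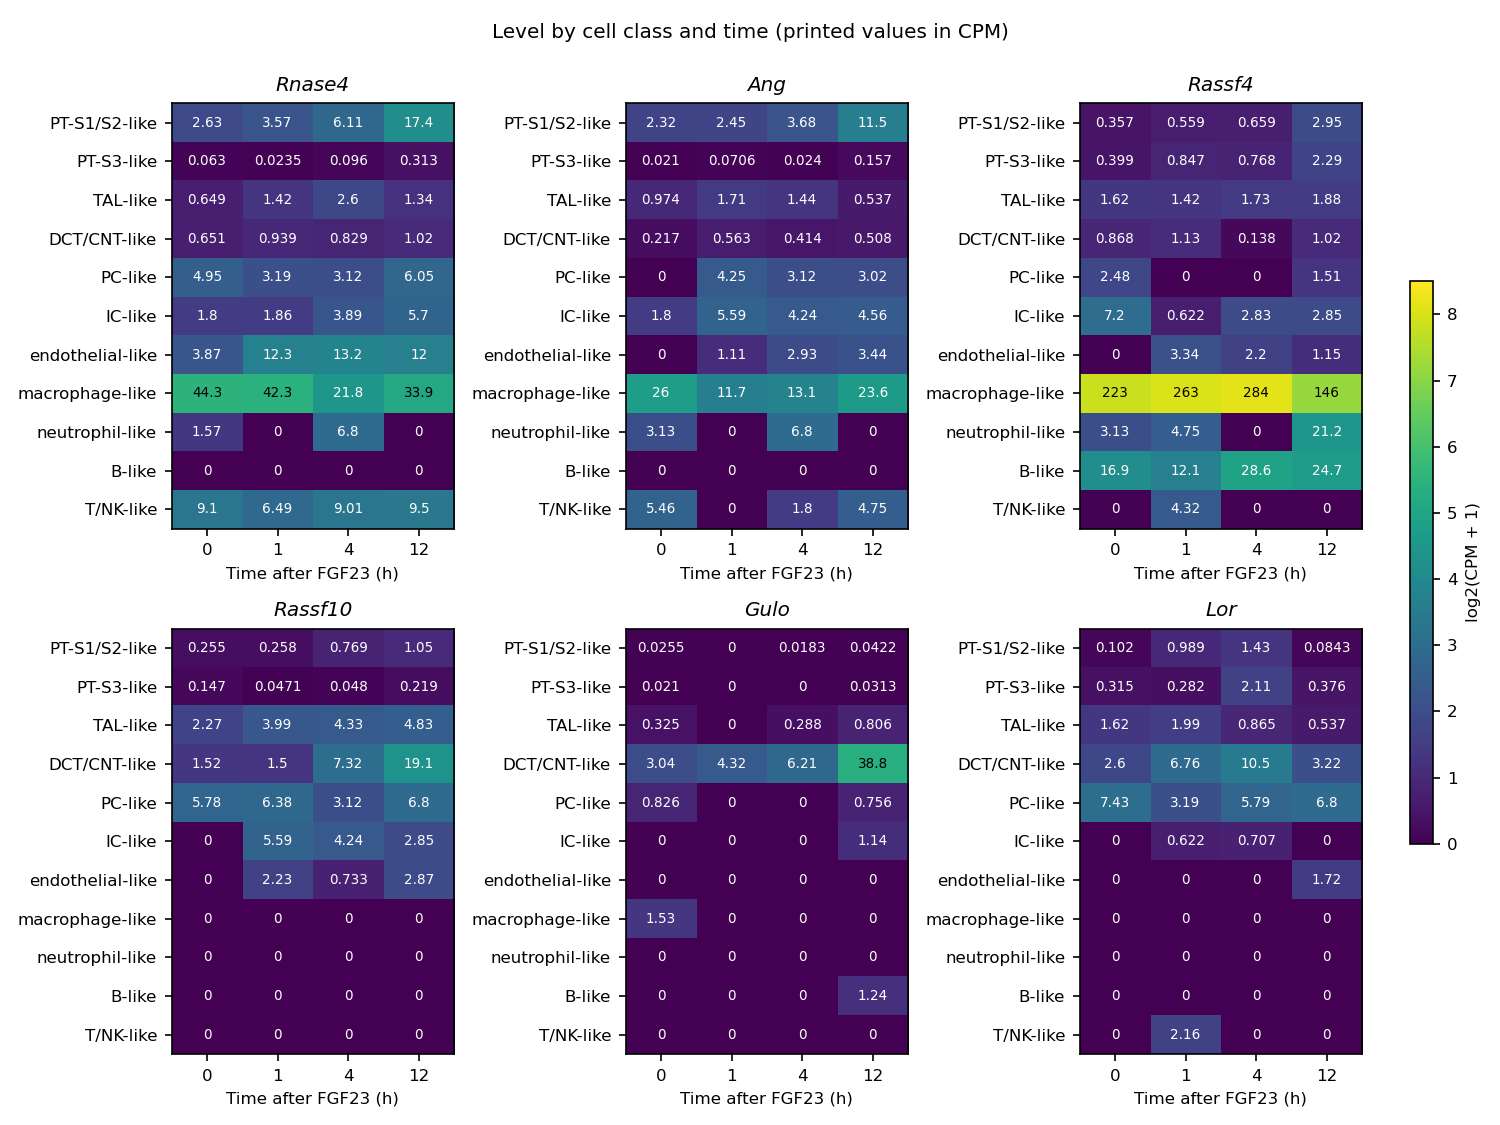
Level of each gene by cell class (rows) and time (columns, 1 library each), coloured by log2(CPM + 1) on 1 scale for all panels and printed in CPM. S1 and S2 proximal cells reach 17.4 CPM of Rnase4 and 11.5 CPM of Ang at 12 h, Gulo stands in the DCT/CNT-like row, and Rassf4 is strongest in macrophage-like cells.

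Rnase4 was higher at 4 h than at 0 h in female-called proximal cells, while in male-called cells its ratio at 4 h was not resolved from 0. Cells were called male from UMIs of Y-linked genes without Xist, and female from Xist without Y-linked UMIs. In PT-like cells Rnase4 was at 1.08, 1.07, 1.42 and 7.12 CPM in male-called cells and at 1.91, 3.68, 8.30 and 18.8 CPM in female-called cells. The S3 clusters held 1969 of 3095, 1709 of 2910, 1626 of 3039 and 1145 of 2503 male-called cells but only 59 to 82 female-called ones, so the same was taken within S1 and S2 cells. There the male-called cells had 53, 53, 69 and 276 UMIs (3.91, 3.29, 3.67 and 16.0 CPM) and the female-called cells 32, 76, 205 and 339 UMIs (1.98, 3.85, 8.86 and 20.3 CPM).

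At 4 h the log2 ratio of Rnase4 to 0 h in S1 and S2 cells was -0.09 (-0.63 to 0.45) for males and 2.16 (1.62 to 2.74) for females. By 12 h the ratios were 2.03 (1.60 to 2.48) and 3.35 (2.83 to 3.93). The intervals of the sexes do not overlap at either time. Ang there was at 2.14, 2.36, 2.82 and 12.8 CPM in male-called cells and at 2.11, 2.99, 4.58 and 11.5 CPM in female-called cells. Its ratio for males was 0.40 (-0.28 to 1.10) at 4 h, against 1.12 (0.55 to 1.72) for females. By 12 h the ratios of Ang were 2.58 (2.02 to 3.19) and 2.45 (1.92 to 3.03), and at neither time do the intervals of the sexes separate. With 1 pool of animals per time, a difference between the sexes and one between the animals pooled cannot be told apart, and the difference itself was not tested.

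**Figure D4:**
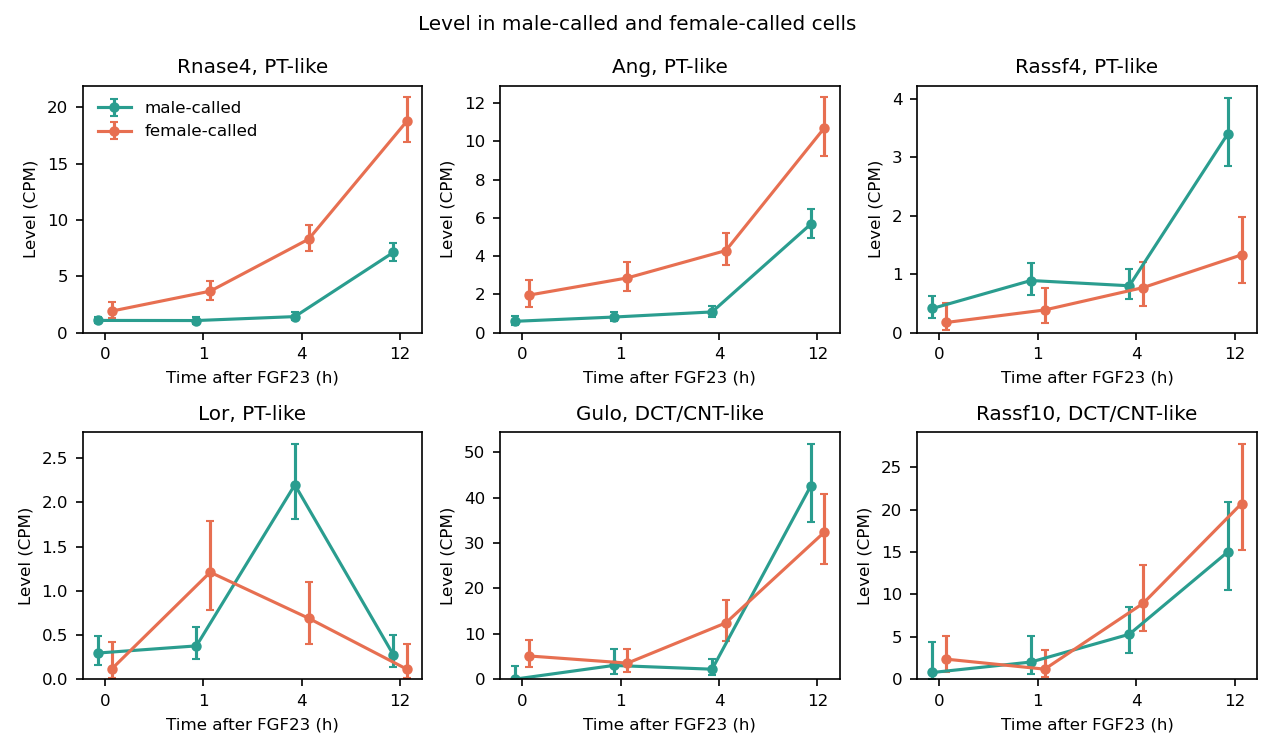
Level in CPM (linear axis) at 0, 1, 4 and 12 h (times drawn at equal distances) in male-called (green) and female-called (orange) cells of the class named above each panel, 1 library per time, with bars for the 95% Poisson interval. Rnase4 at 4 h is at 1.42 CPM in male-called and 8.30 CPM in female-called PT-like cells, and Gulo and Rassf10 reach their highest level at 12 h in both.

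The rest of the RNase A family was hardly measured in the tubule. Of the 17 genes of the list of family members and partners found in the files, 4 had at least 20 UMIs in PT-like cells: Rnase4, Ang, the cytosolic ribonuclease inhibitor Rnh1 and the angiogenin receptor Plxnb2. Only Rnase4 and Ang were at least 2-fold higher at 12 h, beside 3.71% of all 14571 genes with that many UMIs, and none was 2-fold lower, beside 3.50%. The median log2 ratio of these 4 at 12 h was 1.56, beside 0.03 for all those genes, but Rnase4 and Ang were chosen for their level at that time, so nothing is read from it. The Ang paralogues Ang2, Ang4, Ang5 and Ang6 had 0 UMIs in PT-like cells in all 4 libraries, and reads that match several copies could have been lost, which makes the level of Ang uncertain. Rnh1 was at 86.1, 82.6, 87.3 and 101 CPM, with a ratio of 0.22 (0.18 to 0.27) at 12 h. Plxnb2 was at 54.6, 59.0, 63.4 and 72.9 CPM, a ratio of 0.42 (0.36 to 0.47).

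Rassf4 was the third gene with a late increase in proximal cells, and it had the fewest molecules of the 3. PT-like cells had 33, 62, 68 and 213 UMIs, or 0.380 (0.262 to 0.534), 0.697 (0.534 to 0.893), 0.706 (0.548 to 0.895) and 2.68 CPM (2.34 to 3.07). The levels at 1 h and 4 h do not differ beyond their intervals, while 12 h lies above all others. The log2 ratios to 0 h were 0.87, 0.89 and 2.82 (2.29 to 3.4) at 1, 4 and 12 h, and the last ranked 8 of 11618 genes. The intervals of the ratios at 1 h and 4 h also leave out 0.

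Unlike Rnase4 and Ang, Rassf4 was found along the whole proximal tubule. At 12 h its ratio was 3.12 (2.23 to 4.17) in the S1 clusters, 2.93 (1.25 to 5.29) in the S2 clusters and 2.52 (1.77 to 3.33) in the S3 clusters. At 1 h it was 0.70 (-0.43 to 1.90), 0.63 (-1.60 to 3.26) and 1.09 (0.25 to 1.97) in the same order. Only the interval of the S3 clusters leaves out 0, but these intervals overlap, so no difference between segments was resolved. The S3 clusters went from 19 to 36, 32 and 73 UMIs, and the S1 clusters from 11 to 20, 25 and 110. Both sexes showed it, with 21, 45, 40 and 135 UMIs in male-called PT-like cells and 3, 8, 19 and 24 in female-called ones. At 12 h male-called S1 and S2 cells were at 4.17 CPM (3.26 to 5.25) and female-called ones at 1.44 CPM (0.920 to 2.14). The share of PT-like cells with a UMI was 0.479%, 0.952%, 0.885% and 3.01%, and after thinning 0.110%, 0.178%, 0.125% and 0.663%.

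Macrophage-like cells held 49.2% of the Rassf4 UMIs of the 0 h library, so their values are set beside the PT-like ones. They had 146, 112, 65 and 99 UMIs, or 223, 263, 284 and 146 CPM. Their ratio at 12 h was -0.61 (-1.0 to -0.24), opposite in sign to the PT-like one. With the change in proportion of their 2 clusters given for Rnase4, cluster 29 was at 322, 332, 291 and 204 CPM, a ratio of -0.66 (-1.11 to -0.22) at 12 h. Cluster 34 was at 139, 135, 113 and 73.1 CPM on 49, 20, 1 and 22 UMIs, a ratio of -0.92 (-1.72 to -0.17). The 7 macrophage markers summed to 9.28, 5.45, 7.46 and 5.68 CPM in PT-like cells, with none at 0, and to 24928, 29019, 40661 and 25563 CPM in macrophage-like cells. In PT-like cells Csf1r carried most of that sum, at 7.25, 4.29, 6.23 and 4.25 CPM, and Cd68 was at 0.173, 0.0899, 0.301 and 0.290 CPM. The part of macrophage RNA in the PT-like level of Rassf4 was not tested. Unnamed cluster 35, led by the dendritic cell genes Xcr1 and Clec9a, had 69, 58, 15 and 20 UMIs of Rassf4 in 47, 28, 8 and 20 cells and was at 151, 151, 190 and 103 CPM, and B-like cells were at 16.9, 12.1, 28.6 and 24.7 CPM. PT-like cells held 11.1% of the 297 Rassf4 UMIs at 0 h and 54.3% of the 392 at 12 h.

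Rassf10 was higher late in the distal tubule. DCT/CNT-like cells had 7, 8, 53 and 113 UMIs, or 1.52 (0.611 to 3.13), 1.5 (0.649 to 2.96), 7.32 (5.48 to 9.57) and 19.1 CPM (15.8 to 23). Its level at 1 h was that of 0 h, and both later levels stood clear of it and of each other. The log2 ratios were -0.02, 2.27 and 3.65 (2.56 to 5.00) at 1, 4 and 12 h, which ranked 3 of 7522 genes. A mitochondrial limit of 25% per cell in place of 50% left 3 UMIs at 0 h and 25 at 12 h, a ratio of 2.47 (0.76 to 4.84).

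Among DCT/CNT-like cells, most Rassf10 molecules were in the early distal cluster. Cluster 11, led by Pvalb and by the thiazide-sensitive cotransporter Slc12a3, had 6, 7, 52 and 103 UMIs, or 1.72, 1.93, 11.1 and 27.5 CPM. Cluster 19, led by the calcium-binding protein genes S100g and Calb1 of the later distal segments, had 1, 1, 1 and 10 UMIs, or 0.894, 0.588, 0.394 and 4.61 CPM. The ratio at 12 h was 4.00 (2.83 to 5.48) in the former and 2.37 (-0.45 to 7.81) in the latter, so the second is not resolved from 0. Cluster 19 grew from 97 to 217 cells between 0 h and 12 h and cluster 11 went from 367 to 350, so the class as a whole had a larger share of cells with little Rassf10 at 12 h. Male-called DCT/CNT-like cells had 1, 4, 17 and 35 UMIs and female-called ones 6, 3, 23 and 46.

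The neighbouring thick ascending limb cells were at 2.27, 3.99, 4.33 and 4.83 CPM of Rassf10, on 7 to 18 UMIs, and these levels do not differ beyond their intervals. PT-like cells had 17, 14, 44 and 57 UMIs, a ratio of 1.88 (1.07 to 2.75) at 12 h, with 47 of the last 57 in the S1 clusters. DCT/CNT-like cells held 13.2% of the 53 Rassf10 UMIs of the 0 h library and 49.8% of the 227 at 12 h. For PT-like cells these shares were 32.1% and 25.1%. Intercalated-cell-like cells had 0, 9, 12 and 5 UMIs, and unnamed cluster 30 was at 14.7, 13.8, 13.7 and 11.7 CPM. The share of DCT/CNT-like cells with a UMI of Rassf10 was 1.51%, 1.79%, 7.09% and 16.2%, and 0.450%, 0.698%, 1.69% and 2.90% after thinning. In endothelial-like cells it was 0 to 0.714%, at a median of 2210.5 to 2443.5 UMIs per cell against 9872 to 11666, and 0 to 0.806% after thinning.

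Other members of the RASSF family and the Hippo pathway differed by less than 2-fold in PT-like cells at 12 h. Of 19 listed genes, 18 had at least 20 UMIs in PT-like cells. Only Rassf4 and Rassf10 were at least 2-fold higher at 12 h, beside 3.71% of all 14571 genes with that many UMIs. Both were chosen with these data known. None of the 18 was 2-fold lower, beside 3.50%. The median log2 ratio of the 18 was -0.02 beside 0.03 for all genes. The interval lay above 0 for 5 of the 18 and below 0 for 5 at 12 h, and above for 10 and below for 3 at 4 h. The share of all genes with such an interval was not counted, so nothing is read from these counts. Above 0 at 12 h were Rassf3 (0.24, 0.15 to 0.34), Rassf6 (0.51, 0.25 to 0.77) and Rassf7 (0.18, 0.07 to 0.29), all genes of the same scaffold family. Rassf1 was at 21.3, 32.8, 34.4 and 20.5 CPM, with a ratio of 0.69 (0.60 to 0.77) at 4 h. Sav1, a scaffold of the Hippo kinases, was at 27.2 and 18.0 CPM at 0 and 12 h (-0.60, -0.69 to -0.50), and the kinase gene Lats2 at 10.4 and 6.92 CPM (-0.59, -0.74 to -0.43). Rassf2 was at 2.18 and 1.16 CPM (-0.91, -1.28 to -0.54). In DCT/CNT-like cells 17 listed genes were measured, Rassf10 alone was at least 2-fold higher at 12 h, beside 4.02% of all 11432 genes with at least 20 UMIs, none was 2-fold lower, beside 3.53%, and the median was -0.14 beside -0.02 for all of them. The Hippo effector gene Yap1 was at 83.1 and 82.6 CPM there.

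Gulo was the gene most restricted to a single class. DCT/CNT-like cells had 14, 23, 45 and 229 UMIs, or 3.04 (1.66 to 5.10), 4.32 (2.74 to 6.48), 6.21 (4.53 to 8.32) and 38.8 CPM (33.9 to 44.1). Neighbouring times overlap up to 4 h, and 12 h lies well above. The log2 ratios were 0.51 (-0.51 to 1.58), 1.03 (0.14 to 2.01) and 3.67 (2.90 to 4.57) at 1, 4 and 12 h, which ranked 2 of 7522 genes. PT-like cells, with far more RNA in all, had 2, 0, 1 and 3 UMIs. Of the 239 Gulo UMIs in the 12 h library, 95.8% lay in DCT/CNT-like cells.

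Gulo was higher at 12 h in both distal clusters. Cluster 11 went from 11 UMIs to 14, 32 and 168, and was at 44.9 CPM at 12 h with a ratio of 3.83 (2.96 to 4.86). Cluster 19 went from 3 UMIs to 9, 13 and 61, and was at 28.1 CPM with a ratio of 3.39 (1.78 to 5.71), which overlaps that of Rassf10 in the same cluster. The share of DCT/CNT-like cells with a UMI was 2.59% (1.34 to 4.47), 4.02%, 5.15% and 20.6% (17.4 to 24.2), and 0.225%, 0.465%, 1.52% and 6.00% after thinning. No endothelial-like cell had one, which among 320 to 700 cells allows shares of up to 0.526 to 1.15%, and after thinning up to 0.769 to 1.87%. A single cell held up to 9 UMIs at 12 h.

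Gulo was also counted in male-called and female-called distal cells. Male-called DCT/CNT-like cells had 0, 6, 7 and 99 UMIs. Their level at 12 h, 42.5 CPM, was at least 18.2-fold higher when the 0 h group of 112 cells is set at a floor of 3 counts, and the exact interval of the log2 ratio starts at 3.86. Female-called cells had 13, 9, 32 and 72 UMIs, or 5.10, 3.52, 12.4 and 32.4 CPM, a log2 ratio of 2.67 (1.81 to 3.65) at 12 h. Both were therefore higher at 12 h. At 0 h the intervals of the sexes overlap, at 0 to 2.87 CPM in male-called and 2.71 to 8.71 CPM in female-called cells, and whether the sexes differed was not tested.

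The rest of the vitamin C pathway showed no such increase in distal cells. Of 14 listed genes of synthesis and transport, 10 had at least 20 UMIs in DCT/CNT-like cells. At 12 h Gulo alone was at least 2-fold higher, beside 4.02% of all 11432 genes with that many UMIs, and Gulo was chosen for that level. Ugdh, which oxidises UDP-glucose, and the glucose transporter Slc2a2 were at least 2-fold lower, beside 3.53% of all those genes. At 0 and 12 h they had 49 and 23 UMIs (-1.45, -2.23 to -0.71) and 16 and 5 UMIs (-2.04, -3.84 to -0.52). The 12 PT markers summed to 294, 196, 182 and 209 CPM in DCT/CNT-like cells at 0, 1, 4 and 12 h. The part of proximal tubule RNA in these 2 ratios was not tested. The median of the 10 was 0.31 beside -0.02 for all genes. Akr1a1, the reductase that makes L-gulonate for this pathway, was at 266, 282, 328 and 482 CPM, a ratio of 0.86 (0.76 to 0.95). The ascorbate transporter Slc23a2 was at 9.77 and 6.94 CPM (-0.49, -1.14 to 0.15). In PT-like cells none of 13 measured genes was 2-fold higher or lower at 12 h, beside 3.71% and 3.50% of all 14571 genes. The ascorbate transporter Slc23a1 was at 95.3 and 97.1 CPM there.

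Because Gulo is best known from hepatocytes, their markers were measured in the same cells. The 8 hepatocyte genes summed to 14.8, 12.0, 7.87 and 11.2 CPM in DCT/CNT-like cells, with Ahsg and Cps1 at 0 in every library. Most of that sum was Apoa2, at 9.12, 9.39, 6.08 and 6.60 CPM. The same 8 genes summed to 318, 308, 308 and 404 CPM in PT-like cells, where Gulo was at its floor. Ttr carried most of the PT-like sum, at 289, 282, 276 and 375 CPM, while Ahsg had 1, 0, 0 and 0 UMIs and Cps1 had 0. The part of hepatocyte RNA in the Gulo level was not tested. The 7 thick ascending limb markers in DCT/CNT-like cells summed to 5329, 4461, 3965 and 2667 CPM. Umod (2643, 2337, 2476 and 1407 CPM) and Egf (1892, 1323, 828 and 534 CPM) carried most of that decrease. Slc12a1 was at 36.7, 31.9, 28.6 and 12.9 CPM, Kcnj1 at 738, 755, 617 and 688 CPM and Ptger3 at 12.4, 9.02, 10.8 and 19.8 CPM. The part of these genes in the result was not tested.

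Lor had another course. PT-like cells had 19, 58, 166 and 16 UMIs, or 0.219 (0.132 to 0.342), 0.652 (0.495 to 0.843), 1.72 (1.47 to 2.01) and 0.202 CPM (0.115 to 0.327). The interval at 12 h overlaps that of 0 h, and the levels at 1 h and 4 h lie above both and apart from each other. The log2 ratios were 1.57 (0.81 to 2.41), 2.98 (2.29 to 3.75) and -0.12 (-1.17 to 0.92) at 1, 4 and 12 h, and the 4 h value ranked 6 of 11723 genes. From 4 h to 12 h the ratio was -3.1. DCT/CNT-like cells went through the same course, with 12, 36, 76 and 19 UMIs, or 2.60, 6.76, 10.5 and 3.22 CPM, ratios of 1.38 (0.40 to 2.45), 2.01 (1.12 to 3.02) and 0.30 (-0.81 to 1.48), and -1.71 from 4 h to 12 h. At a mitochondrial limit of 25% per cell, 2 and 17 UMIs were left at 0 h and 4 h, and the ratio of 1.71 (-0.36 to 4.87) was not resolved from 0.

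Lor was higher at 1 h in the S1 and S2 clusters as a whole, and its ratio at 1 h in the S3 clusters was not resolved from 0. The S1 clusters had 2, 35, 49 and 1 UMIs and the S2 clusters 2, 11, 29 and 3. The S3 clusters had 15, 12, 88 and 12 UMIs, with a 1 h ratio of -0.16 (-1.38 to 1.04) and a 4 h ratio of 2.75 (1.95 to 3.64). Together the S1 and S2 cells had ratios of 3.28 (1.82 to 5.21) and 3.81 (2.39 to 5.72), so the 1 h intervals of the early and late segments do not overlap. The segments differ in sex, however: S3 cells with a sex call were nearly all male-called, and 25 of the 46 UMIs of S1 and S2 cells at 1 h lay in female-called cells. Among male-called cells the 1 h ratio was 1.75 (-0.14 to 4.22) in S1 and S2 and -0.66 (-2.24 to 0.80) in S3, and these intervals overlap, so segment and sex cannot be told apart here. In the distal tubule, cluster 11 had 7, 32, 53 and 11 UMIs and cluster 19 had 5, 4, 23 and 8, with a ratio at 1 h of 2.14 (0.93 to 3.56) and -0.93 (-3.26 to 1.29).

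Lor was counted by sex on few molecules. In S1 and S2 cells, male-called cells had 3, 12, 39 and 1 UMIs and female-called cells 1, 25, 17 and 2, or 0.0620, 1.27, 0.734 and 0.120 CPM in the latter. The female 1 h and 4 h intervals (0.820 to 1.87 and 0.428 to 1.18 CPM) overlap, so the order of those levels is not resolved. The share of PT-like cells with a UMI was 0.284%, 0.872%, 2.22% and 0.248%, and 0.0472%, 0.114%, 0.418% and 0.0166% after thinning. Almost all of these cells held a single molecule, with at most 2 in any PT-like cell. Principal-cell-like cells were at 7.43, 3.19, 5.79 and 6.80 CPM on 3 to 13 UMIs, with overlapping intervals.

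Several genes of the cornified envelope list were also higher at 4 h. Of 23 listed genes in the files, 5 had at least 20 UMIs in each of the classes. In DCT/CNT-like cells at 4 h, 4 of the 5 were at least 2-fold higher, beside 4.25% of all 11432 genes with that many UMIs, and the median log2 ratio was 1.78 beside -0.07 for all genes. Lor was chosen for its level at that time and is 1 of the 5. The list itself was chosen with earlier results of these data known. Nothing is therefore read from its counts and medians in either class. The 4 were Lor, Sprr1a, an envelope precursor also known from injured epithelia, and S100a10 and S100a11, genes of the S100 protein family. Sprr1a had 0, 3, 371 and 55 UMIs there. S100a10 was at 119, 133, 410 and 271 CPM and S100a11 at 112, 111, 251 and 286 CPM, so both were above 0 h at 12 h too. At 12 h, 4 of the 5 were at least 2-fold higher, beside 4.02% of all 11432 genes. These were Sprr1a, S100a10, S100a11 and S100a14, the last on only 4 and 11 UMIs at 0 h and 12 h. The median was 1.18 beside -0.02 for all genes, while Lor was near its level of 0 h.

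In PT-like cells 3 of the 5 were at least 2-fold higher at 4 h, Lor, S100a10 and the transglutaminase Tgm1, beside 4.05% of all 14571 genes, and the median was 1.06 beside 0.05 for all genes. Tgm1, whose enzyme crosslinks envelope proteins in the epidermis, was at 12.9, 14.9, 29.8 and 22.5 CPM. S100a10 was at 137, 159, 287 and 357 CPM. Sprr1a had 7, 25, 7 and 12 UMIs, so its 4 h level in the proximal tubule was that of 0 h. The 6 keratinocyte markers summed to 24.4, 23.4, 25.9 and 25.3 CPM in PT-like cells, with Krt1 and Dmkn at 0, and to 22.4, 22.7, 20.2 and 25.4 CPM in DCT/CNT-like cells, with Krt14, Krtdap, Dmkn and Krt77 at 0. Krt10, which is not restricted to the epidermis, carried nearly all of that sum, with 2119, 2082, 2490 and 2008 UMIs in PT-like cells, where each of the other 5 had at most 1 UMI per library. Krt10 in DCT/CNT-like cells had 103, 120, 145 and 148 UMIs and Krt1 had 0, 1, 1 and 2. The 6 urothelial markers summed to 0.217, 0.376, 0.552 and 1.35 CPM in DCT/CNT-like cells, with Krt5, Krt15 and Upk2 at 0.

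Genes of similar pattern were found by the Pearson correlation of log2(CPM + 5) over 36 points, which are 9 classes at 4 times, among 11715 genes. The points share libraries and differ in depth, and the values are descriptions. Gulo was most like Slitrk4 (0.90), Etv4 (0.89) and Lrrn1 (0.80). Etv4, a transcription factor gene, was at 2.82, 5.07, 20.9 and 26.2 CPM in DCT/CNT-like cells, so it was already raised at 4 h, when Gulo was at 6.21 CPM. Slitrk4 was at 8.90, 6.76, 19.3 and 25.2 CPM there.

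Lor was most like Gper1 (0.87), Fam19a5 and Gpc3 (0.85 each), and Gper1, a membrane receptor gene, was at 4.12, 6.39, 42.9 and 31.5 CPM in DCT/CNT-like cells. Rassf10 was most like Nsun7 (0.83), Nat14 (0.81) and Ccdc160 (0.80). Its correlation with Gulo was 0.64 and with Lor 0.62. Rassf4 was most like the immune-cell genes Rnase6 and Bcl11a (0.86 each) and Slc15a4 (0.84), over classes that did not include macrophage-like cells, since these numbered under 50 at 4 h.

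For Ang the nearest gene of all 11715 was Rnase4 (0.60), followed by Arhgap18 (0.58) and the complement gene Cfi (0.57). For Rnase4 the nearest were Yipf3 (0.80), Gabarapl2 and Fkbp8 (0.78 each), which differed little over time in PT-like cells: Yipf3 was at 52.9, 51.6, 62.2 and 62.7 CPM.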

How the data were processed

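Droplet single-cell RNA sequencing was done on 4 libraries of kidney cells, 1 per time. The authors deposited raw UMI counts per gene and barcode, with barcodes already selected. The submitters' processing notes name Cell Ranger 3.1.0, STAR, Seurat and the build mm10 without saying what each did, so how ambiguous reads were counted is not given in the sources used here. Gene identifiers were matched to GENCODE vM21, which held 99.62% of 31053.

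Barcodes with under 300 genes or over 50% mitochondrial UMIs were left out, and doublets were called from simulated doublets among 30 neighbours (7.59 to 8.89% of cells per library) and removed after clustering. Cells of all libraries were clustered with Leiden (leidenalg 0.10.2, scanpy 1.11.5, resolution 1.5, 20 neighbours, 30 principal components), giving 50 clusters named by marker lists where at least 3 markers were on. Thresholds for naming were set with the data seen, and names are rebuilt here. Counts were summed per class and library, since cells are not replicates; no test across samples was possible. Ratios between libraries carry exact binomial intervals from scipy 1.17.1. Fewer than 100 UMIs over the libraries compared kept a gene out of the background, and fewer than 20 out of the list counts. The scripts were tested on simulated data. The 6 genes, the gene lists and the alternatives were chosen with earlier results of these data known. Besides the 6 genes and the lists, the text names the 3 genes of most similar pattern for each, with 300 UMIs or more, and the genes that lead a cluster.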

Additional observations from a re-analysis of the deposited data

How the results depend on the processing

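No paired analysis was possible because each time has 1 library, and for the same reason no library could be left out. The 9 ratios were recomputed under 87 alternatives in all: mitochondrial limit, doublets kept, a higher minimum of genes per cell, equal weight per cell, median-ratio scaling, each sex alone, clustering at resolution 1.0, single segments, and clusters held at their 0 h shares, which was added after seeing the data. None changed the sign of a ratio whose interval left out 0. Of the 87, 77 stayed within the counting interval of the reported value and 10 moved out of it. Rnase4 in PT-like cells at 12 h (3.11) was 2.72 in male-called cells, 2.73 in S1 and S2 cells, 2.31 in S3 cells and 2.73 at fixed cluster shares. Ang (2.71) was 3.26 in male-called cells, 2.31 in S1 and S2 cells and 2.27 at fixed shares. Lor in PT-like cells at 4 h (2.98) was 3.81 in S1 and S2 cells. In DCT/CNT-like cells at 12 h, Gulo (3.67) was 2.67 in female-called cells and Rassf10 (3.65) was 2.47 at a mitochondrial limit of 25%. The cause was not tested. The interval came to include 0 for Lor in DCT/CNT-like cells at 4 h under the 25% limit (1.71, -0.36 to 4.87) and for Ang in S3 cells alone (2.90, -0.26 to 8.46). Rassf4 in PT-like cells ranged from 2.52 to 3.05. In DCT/CNT-like cells Rnase4 ranged from -0.86 to 1.79 and Rassf4 from -1.44 to 1.79, on 6 UMIs or fewer per library in the reported values. No ratio could be given for Gulo in male-called DCT/CNT-like cells (0 UMIs at 0 h) or for Rnase4 in DCT/CNT-like cells at the 25% limit (0 and 1 UMIs). Depth limits Rnase4, Ang and Rassf4 in distal cells and Gulo in proximal cells.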
